A study of Drosophila melanogaster with 2 samples.

Results

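Binding of CG32767 was examined at the small nucleolar RNA (snoRNA) genes of Drosophila melanogaster and at the genes that host them. All 269 genes of biotype snoRNA on the 6 main chromosome arms were taken from the Ensembl annotation. A host was any gene on the same strand whose span contained a snoRNA gene, which gave 95 hosts. With the hosts, the set held 364 of the 18164 annotated genes other than transposable elements. Neither choice used a measured value. A gene was counted as having a promoter summit when the summit of a deposited peak lay within 500 bp of one of its transcription start sites (TSSs).

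The data were chromatin immunoprecipitation sequencing (ChIP-seq) peak lists from whole embryos aged 0 to 24 h, made in 1 group of 2 biological replicates with 1 library each. The protein was expressed from a transgene as a fusion with eGFP (enhanced green fluorescent protein) and was precipitated through that tag with anti-GFP antibody. Both libraries came from flies with this transgene. A control library was not analysed here, and the labels used here state neither the promoter of the transgene nor whether the untagged gene was intact. The lists hold no read counts, so depth is unknown. They held 2887 peaks for replicate 1, 2624 for replicate 2, and 3533 in the conservative list made from both, which was the main list. Signal is the peak caller's own value and ranks peaks within 1 list only, with a median of 104.8 in the main list. In whole embryos, binding in few cells and weak binding in many cannot be told apart.

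As background, snoRNAs are short nuclear RNAs that pair with ribosomal RNA precursors and guide proteins to the base to be modified. Box C/D snoRNAs guide methylation of the ribose and box H/ACA snoRNAs guide conversion of uridine to pseudouridine. In flies most lie in introns and are trimmed out of the spliced intron, so their transcription starts at the promoter of the host. Hosts are often genes of the translation machinery, whose own start sites lie in a pyrimidine-rich initiator, or Uhg genes, non-coding genes whose spliced exons encode no known protein.

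The sequences printed here show what was measured, and all were read from the RefSeq dm6 assembly and printed 5′ to 3′ on the strand of the gene. The first kind is the snoRNA genes themselves, shown since each of these had a main-list summit within 500 bp of its own start. In the box C/D genes the C box letters TGATGA and the D box letters CTGA are in capitals, and in the box H/ACA gene the ACA 3 bases from the end. They are U49:66Da in an intron of RpL14 (chr3L:8601473-8601552, plus strand), Me18S-A425 in RpL3 (chr3R:11222841-11222924, plus strand) and Psi28S-1232 in RpL17 (chrX:6743675-6743815, minus strand).
snoRNA:U49:66Da: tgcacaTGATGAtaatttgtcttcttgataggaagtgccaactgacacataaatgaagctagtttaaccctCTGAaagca
snoRNA:Me18S-A425: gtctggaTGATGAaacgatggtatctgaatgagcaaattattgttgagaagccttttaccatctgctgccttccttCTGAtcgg
snoRNA:Psi28S-1232: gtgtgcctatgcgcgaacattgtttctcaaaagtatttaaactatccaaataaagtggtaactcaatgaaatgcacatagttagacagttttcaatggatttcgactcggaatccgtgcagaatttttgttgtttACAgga

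The second kind is the start site of ribosomal protein hosts whose summit lay within 100 bp of it, from 60 bases before the TSS to 20 after. Capitals mark the initiator hexamer where a script found it wholly within 10 bases of the TSS on the sense strand, as CTTT preceded by a pair of pyrimidines. RpL14, RpL4 and RpL22 have it. RpS4, with its summit 6 bp from the TSS, has the same letters a little downstream, running past that limit, and was not counted. The windows are chr3L:8600946-8601026 (RpL14), chr3R:27922761-27922841 (RpL4), chrX:765110-765190 (RpL22, minus strand) and chr3L:13041741-13041821 (RpS4).
RpL14: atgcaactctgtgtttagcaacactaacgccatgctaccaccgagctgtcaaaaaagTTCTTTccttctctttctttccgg
RpL4: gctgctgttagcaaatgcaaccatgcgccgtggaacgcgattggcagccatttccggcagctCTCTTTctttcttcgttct
RpL22: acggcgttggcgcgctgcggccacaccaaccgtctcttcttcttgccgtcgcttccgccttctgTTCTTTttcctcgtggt
RpS4: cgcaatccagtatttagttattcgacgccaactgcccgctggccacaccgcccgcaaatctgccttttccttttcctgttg

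The last kind is 101 bases centred on summits that lay over 100 bp from the host TSS, with unbroken runs of 6 or more A or T in capitals. They are shown for their base composition, which is compared with that near start sites in a later paragraph. Those printed held 64.4% (RpL28) to 78.2% (CG1142) A and T. Host summits over 100 bp away with less A and T, such as those of hfp (40.6%) and lola (48.5%), are not printed, so the windows do not show the full range. The windows are chr3R:7473895-7473995 (CG1142, minus strand), chr3R:28811889-28811989 (Prp39), chr3L:13023185-13023285 (RpS12), chr3L:20452933-20453033 (Uhg8), chr3R:20822007-20822107 (RpS20) and chr3L:3223018-3223118 (RpL28, minus strand).
CG1142: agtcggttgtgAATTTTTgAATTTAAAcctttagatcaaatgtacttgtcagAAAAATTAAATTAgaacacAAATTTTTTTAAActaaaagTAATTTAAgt
Prp39: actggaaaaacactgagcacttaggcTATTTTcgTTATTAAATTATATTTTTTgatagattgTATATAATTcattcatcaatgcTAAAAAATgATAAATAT
RpS12: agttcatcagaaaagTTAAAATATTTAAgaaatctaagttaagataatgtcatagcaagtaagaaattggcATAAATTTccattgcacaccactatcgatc
Uhg8: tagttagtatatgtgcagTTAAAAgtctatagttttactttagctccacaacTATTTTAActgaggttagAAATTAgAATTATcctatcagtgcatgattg
RpS20: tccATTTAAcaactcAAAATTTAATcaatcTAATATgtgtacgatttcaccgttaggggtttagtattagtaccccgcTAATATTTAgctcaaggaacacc
RpL28: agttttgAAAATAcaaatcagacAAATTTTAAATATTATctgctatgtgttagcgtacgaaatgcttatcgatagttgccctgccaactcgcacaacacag

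The share of genes with a main-list summit near a TSS was higher for host genes than for all genes. For snoRNA genes it was near that of ncRNA genes. Of the 95 hosts, 36 (37.9%, 95% exact interval 28.1 to 48.4) had a main-list promoter summit, against 11.9% of all genes. Of the 269 snoRNA genes, 14 (5.20%, 2.87 to 8.58) had one within 500 bp of their own start, against 5.06% of the 3261 genes of biotype ncRNA. Intervals are Clopper-Pearson intervals for counting error only, and no test of a difference between shares was run. The host share was above that of all genes in each deposited thresholded list. It was 41 of 95 hosts in the other list of the whole series (43.2%) against 14.6% of all genes, 25 in the list of replicate 1 (26.3%) against 10.1%, and 26 in that of replicate 2 (27.4%) against 9.06%. In all, 15 hosts had a promoter summit in each of the 4 thresholded lists, and 48 in none. The same counts over all genes are not given here, so neither is read as high or low.

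By kind of host, the main-list share was 58.6% for ribosomal protein hosts and 29.6% for other protein-coding hosts, and the gap was narrower in the replicate lists. Of 84 protein-coding hosts, 34 (40.5%, 29.9 to 51.8) had a main-list summit, against 14.1% of all protein-coding genes. Among them were 17 of the 29 ribosomal protein hosts (58.6%, 38.9 to 76.5) and 16 of 54 hosts of other protein-coding classes (29.6%, 18.0 to 43.6). In the list of replicate 1 ribosomal protein hosts had a summit in 11 of 29 cases (37.9%) and other protein-coding hosts in 20.4%. In that of replicate 2 the counts were 9 of 29 (31.0%) and 27.8%, so the main-list share of ribosomal protein hosts was over 1.5 times that of either replicate. The remaining protein-coding host with a main-list summit was eEF1alpha1, which encodes a translation elongation factor. Ribosomal protein genes that host no snoRNA gene had a summit in 27 of 64 cases (42.2%, 29.9 to 55.2), an interval that overlaps that of the ribosomal protein hosts. In the lists of replicates 1 and 2 their share was 25.0% and 29.7%. Without ribosomal protein genes, 19 of 66 hosts (28.8%, 18.3 to 41.3) had a summit.

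The share also moved with the number of annotated start sites, and a gene with more TSSs is searched over more windows. Of the 49 hosts with 1 TSS, 16 (32.7%, 19.95 to 47.5) had a main-list summit, against 8.51% of all genes with 1 TSS. Of the 46 with several, 20 (43.5%, 28.9 to 58.9) had one, against 24.6%. Without replicate 2, in the list of replicate 1, it was 13 of 46 (28.3%, 16.0 to 43.5) against 20.4%, and without replicate 1 it was 14 of 46 (30.4%, 17.7 to 45.8) against 19.5%. Both of these intervals include the share of all genes with several TSSs. Close neighbours bear on the share as well, since a summit within 500 bp of 2 genes counts for both. Among genes with no TSS of another gene within 1000 bp, 9 of 28 hosts (32.1%, 15.9 to 52.4) had a summit, against 7.35% of all such genes.

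**Figure D1:**
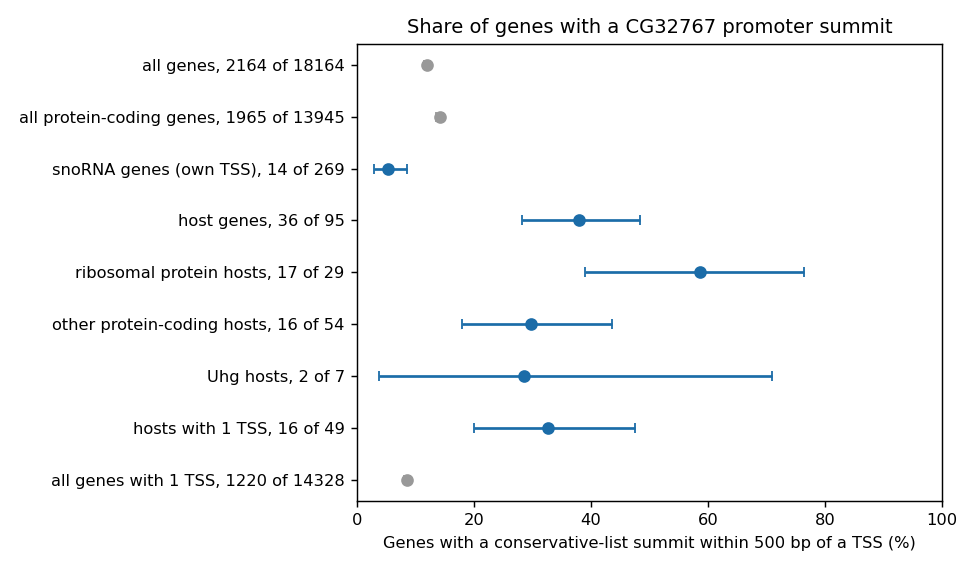
Percent of genes with a conservative-list summit within 500 bp of a TSS, for sets of genes given with their counts (points) and 95% exact intervals (bars). Blue points are snoRNA genes and hosts and grey points are whole classes of genes; ribosomal protein hosts are at 58.6% and snoRNA genes at 5.20%, against 11.9% for all genes. The share of ncRNA genes, not drawn, was 5.06%.

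The summits at host promoters were of middling rank. The 43 different main-list peaks with a summit within 500 bp of a host TSS had a median signal of 94.88, against 104.8 for the whole list and 111.2 for its 1788 promoter peaks, and their median percentile in the list was 41.8. In the other series list, whose median is 90.09, it was 53.6, so the side of the median depends on the list. The strongest peak of 15 hosts was above the list median and that of 21 was not. Only CG1142, Stt3A, Msp300 and CG12316 were above 200, none of them a gene for a ribosomal protein. The strongest peak of ribosomal protein hosts ran from 72.60 to 168.4 with a median of 95.83, and 5 of 17 were above the list median. That of other protein-coding hosts ran from 71.64 to 473.3 with a median of 122.3, and 9 of 16 were above it.

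Among these other protein-coding hosts the strongest site belonged to CG1142 (3R, 7472458 to 7473781), which holds 1 box C/D-like snoRNA gene. Its peak (3R, 7473817 to 7474081) had a signal of 473.3 in the main list, 273.0 in replicate 1 and 204.0 in replicate 2, and ranked 99 of 3533. Its summit lay 164 bp upstream of the TSS, with no other gene's TSS within 500 bp. Stt3A, which encodes the catalytic subunit of an oligosaccharyltransferase and holds 3 snoRNA genes, had a peak of 443.4, with 259.9 in replicate 1 and 181.0 in replicate 2. That summit lay 388 bp upstream of Stt3A and 221 bp from the start of bves, so the peak could be counted for either gene. Msp300, which encodes a nesprin that anchors nuclei in muscle, had a peak of 261.2, with 165.6 and 103.9 in replicates 1 and 2, 395 bp upstream of a TSS. These sites were in both replicate lists.

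The next sites were weaker. CG12316 had a peak of 227.7, with 119.8 in replicate 1 and 95.28 in replicate 2, and was absent from the thresholded list of replicate 2. The peak of Irbp, which encodes a Ku subunit for the joining of DNA ends, was 198.9, with 137.7 and 65.65, and its summit lay 18 bp from the TSS of mgr, a prefoldin gene, and 154 bp from that of Irbp. Irbp was in both replicate lists.

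A further 3 hosts of this class were among the 15 strongest. The peak of drn was 153.2, with 91.73 in replicate 1 and 61.03 in replicate 2, and lay 3 bp from a TSS. That of lola, which encodes BTB zinc-finger transcription factors, was 127.1, with 42.99 and 85.49. That of hfp, which encodes a splicing factor, was 117.5, with 32.04 and 83.36, and lay 274 bp inside the gene. Of these 3, lola was absent from the list of replicate 1, and the others were in both replicate lists.

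Ribosomal protein hosts were led by RpS20 (3R, 20822181 to 20823356), which holds 2 box H/ACA-like snoRNA genes. Its peak was 168.4 in the main list, 102.0 in replicate 1 and 63.79 in replicate 2. RpL11 had 138.0, with 61.27 and 77.88, and its summit lay 7 bp inside the gene. RpS4 had 132.0, with 67.61 and 66.64, at 6 bp from the TSS. These 3 peaks stood above the list median, and so did those of RpL14 and RpL23A. RpL14 had 130.6, with 34.14 in replicate 1 and 91.30 in replicate 2. RpL23A had 114.5, with 53.73 and 68.29. The peaks of RpL14 and RpS4 were in the list of replicate 2 and not in that of replicate 1, and the others were in both.

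Across the 36 hosts the replicates differed in which sites they held. Each of the 36 main-list peaks overlapped a candidate peak in the ranked list of either replicate. The replicates' signals come from separate lists, whose thresholded forms had medians of 66.59 and 61.54, and are not compared in size here. After thresholding, 14 of the 36 (38.9%) were overlapped in both replicate lists, 7 in that of replicate 1 alone, 7 in that of replicate 2 alone and 8 in neither. Over all main-list peaks, 45.8% were overlapped in both lists and 19.6% in neither, against 22.2% in neither for the hosts. The difference between these shares was not tested.

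**Figure D2:**
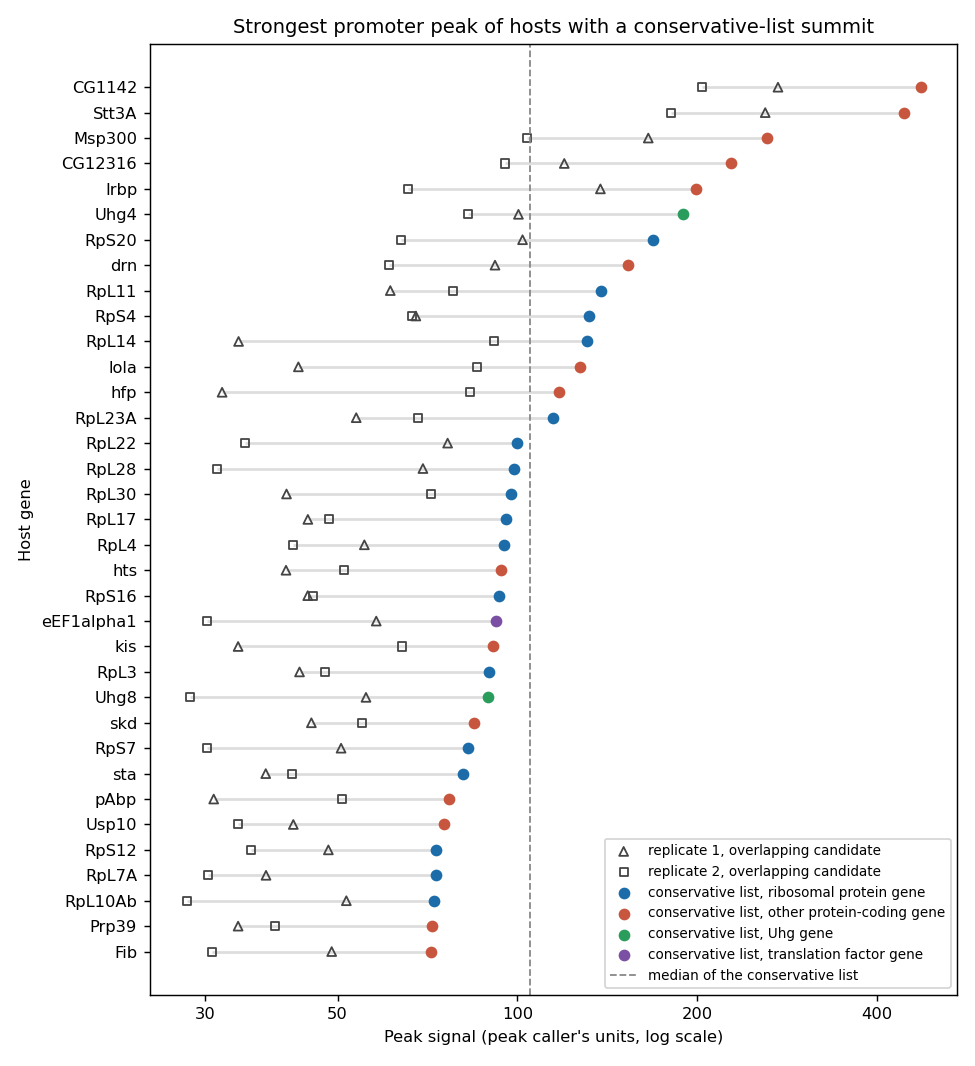
Signal of the strongest promoter peak of 35 of the 36 hosts with a conservative-list summit (log axis, peak caller's units): filled points for the conservative list, coloured by kind of host, open triangles for the overlapping candidate of replicate 1 and open squares for that of replicate 2. The points run from 473.3 at CG1142 to 71.64 at Fib, and 14 of those drawn lie above the list median of 104.8 (dashed line); the replicates' signals come from lists of their own.

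The 7 Uhg genes, which hold 48 snoRNA genes, differed in whether they had a summit. Uhg4 (2R, 9095273 to 9097312), with 5 box C/D-like and 2 box H/ACA-like genes, had a peak of 189.6 in the main list, 100.4 in replicate 1 and 82.53 in replicate 2. Its summit lay 68 bp upstream of the TSS with no other start within 500 bp. Uhg8 (3L, 20453293 to 20454731), with 3 box C/D-like genes, had a peak of 89.13, with 55.79 and 28.31. That summit lay 310 bp upstream of Uhg8 and 119 bp from CG5199, so Uhg4 was the Uhg gene with a main-list summit of its own.

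The other 5 Uhg genes had no main-list summit. Uhg5, with 11 box C/D-like genes, had a candidate of 58.68 in the ranked list of the whole series, 17.37 in replicate 1 and 41.40 in replicate 2, and was in the list of replicate 2 and the other series list. Uhg2 had a candidate of 56.51, Uhg3 of 47.26 and Uhg7 of 35.56. Uhg1, with 16 snoRNA genes, had no candidate in that ranked list within 500 bp of its TSS and 1 of 15.97 in replicate 2. The whole-series candidates of Uhg2, Uhg3, Uhg5 and Uhg7 were below 71.64, the lowest strongest-peak signal among hosts with a main-list summit. That value is no floor of the list, since main-list peaks within 500 bp of a host or snoRNA TSS went down to 14.55. None of the 4 other non-coding hosts had a summit. Together 2 of 11 non-coding hosts (18.2%, 2.28 to 51.8) had one, an interval that includes the share of all genes.

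None of the 5 hosts that carry the most snoRNA genes had a main-list promoter summit, where 37.9% of all hosts and 11.9% of all genes had one, and 3 of the 5 had one in the other series list, where 43.2% of hosts did. The 5 hosts with 10 or more were Arpc2 with 17, Uhg1 with 16, dom with 15, RpS5a with 14 and Uhg5 with 11, together 73 snoRNA genes. Arpc2, which encodes an actin-nucleating Arp2/3 subunit, had a ranked candidate of 43.08 for the whole series, with 30.15 in replicate 1 and 35.70 in replicate 2. The candidate of dom, which encodes a chromatin-remodelling ATPase, was 66.20, with 43.90 and 34.69, and was in the other series list. That of RpS5a was 93.00, with 58.40 and 42.05. RpS5a was the strongest of the 5, and it was in the other series list and in the list of replicate 1. Uhg5 was in the other series list as well. The RpS5a signal was above that of some hosts with a main-list summit, such as eEF1alpha1 (92.13). In the ranked list used here the −log10 of the irreproducible discovery rate was 0.14 for RpS5a and 0.21 for dom, where a rate of 0.01 is 2. Their rates in the other deposited ranked list of the whole series are not given here.

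Over all hosts the share did not run one way with the number of snoRNA genes. Of the 56 hosts with 1 snoRNA gene, 17 (30.4%, 18.8 to 44.1) had a main-list summit. Of the 24 with 2 to 4, 15 (62.5%, 40.6 to 81.2) had one, and of the 15 with 5 or more, 4 (26.7%, 7.79 to 55.1), beside 37.9% of all hosts. These shares moved with the list. In the other series list they were 33.9%, 58.3% and 53.3%, with 8 of the 15 hosts of 5 or more. For hosts with 2 to 4 snoRNA genes the share was 29.2% (7 of 24) in the list of replicate 1 and 41.7% (10 of 24) in that of replicate 2. The median ranked candidate within 500 bp of a TSS was 59.80, 78.94 and 65.97 in these 3 classes. Counted by snoRNA gene, 83 of the 247 genes inside a host (33.6%) had a host with a main-list summit, and 129 (52.2%) had a host with a summit in the other series list. In the main list the split by kind was 38 of 107 box C/D-like genes (35.5%), 33 of 111 box H/ACA-like genes (29.7%) and 12 of 29 that the symbol did not class (41.4%). Genes in 1 host share its summit, so these are not independent.

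**Figure D3:**
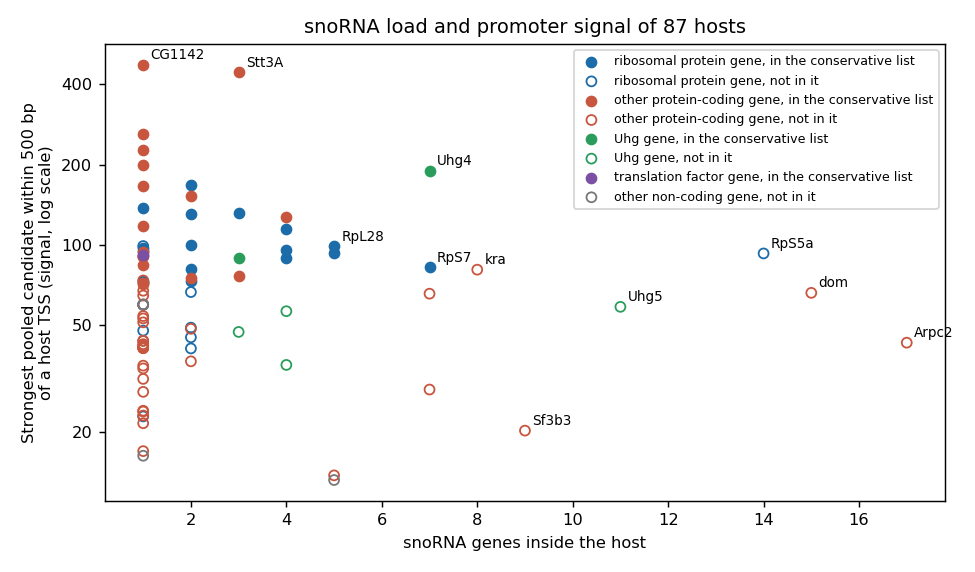
Strongest pooled candidate within 500 bp of a host TSS (log axis, ranked list of the whole series) against the number of snoRNA genes inside the host, for the 87 hosts with such a candidate. Filled points have a summit in the conservative list and open points do not; the hosts with 10 or more snoRNA genes are all open, from 43.08 at Arpc2 to 93.00 at RpS5a, and Uhg1 is absent since it had no candidate.

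Most of the hosts without a main-list summit had a candidate in the ranked list of the whole series. All 3533 main-list peaks are in that ranked list too, so lower signals in hosts outside the main list were partly built in. Of these 59 hosts, 51 had a candidate in the ranked list of the whole series within 500 bp of a TSS, with signals from 13.18 to 99.12 and a median of 43.74, and 8 had none. That list held 121998 candidates, and 72.6% of all genes, 91.6% of hosts and 53.5% of snoRNA genes had one in it. Another deposited ranked list of the whole series, of 129365 candidates, was not used for these counts. Of the 8 hosts with none, RpS3A had a summit in the other series list (65.13) and Dek in that of replicate 2 (63.53). In 11 of the 59, among them RpS29 (99.12), CG43051 (90.32) and Hrb98DE (65.73), which encodes an RNA-binding protein of nascent transcripts, a summit was held by another thresholded list. These 3, RpS3A and Dek were named after their values were seen. Of the 59, 6 had a main-list summit inside the gene but none at a TSS. Shares over all genes are not given here for the 11 or the 6, so neither is read as high or low.

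Position relative to the TSS differed between the kinds of host. Of the 36 strongest host summits, 26 lay upstream of the nearest host TSS, 9 downstream and 1 on it, with a median offset of -60 bp. The upstream share was 72.2%, against 70.5% of the 1788 promoter summits of the list. Within 100 bp of the TSS were 21 (58.3%), against 36.4% of all promoter summits. Host distances are to the host's own nearest TSS, and those of all promoter summits to the nearest TSS of any gene. In ribosomal protein hosts the median distance was 25 bp and 13 of 17 lay within 100 bp. In other protein-coding hosts it was 150.5 bp and 6 of 16 did. For 21 of the 36 no other gene's TSS lay within 500 bp of the summit, and for 6, Stt3A, Irbp, Uhg8, RpL10Ab and Fib among them, another gene's TSS was the nearest.

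Base composition moved with position. In the 101 bp at the summit, A and T made up a median of 57.4% at host summits, from 40.6% at hfp to 78.2% at CG1142, against 64.4% at all promoter summits of the list. Host summits within 100 bp of the TSS had a median of 54.5%, and those farther away had 67.3%. Over all promoter summits, with distance taken to the nearest TSS of any gene, the medians were 60.4% within 100 bp and 67.3% beyond. The summit window was richer in A and T than windows 500 bp to either side at 21 of 36 hosts (58.3%), against 67.2% of all promoter summits. This was so at 12 of the 15 distant host summits and at 9 of the 21 close ones. The runs of A and T printed for CG1142 and Prp39 belong to the distant kind, at its richer end.

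**Figure D4:**
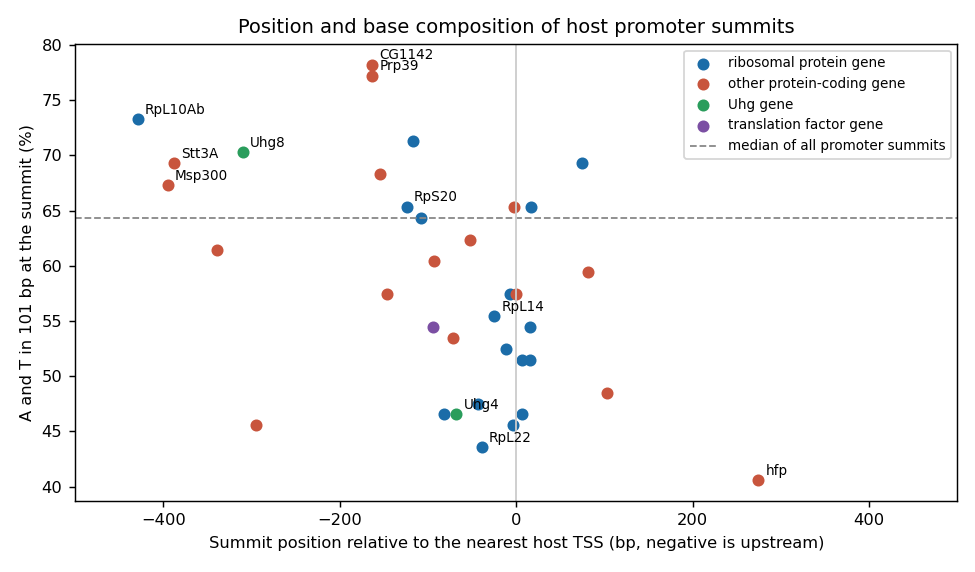
Percent of A and T in the 101 bp at each of the 36 host summits against its position relative to the nearest host TSS in bp, coloured by kind of host. Most ribosomal protein hosts (13 of 17) lie within 100 bp of the TSS. The 15 summits over 100 bp away run from 40.6% at hfp to 78.2% at CG1142, with a median of 67.3%. The dashed line is the median of all promoter summits, 64.4%.

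The letters of the initiator and of the DRE, a promoter element, were more frequent at host starts than at all starts, at hosts with a summit and at those without. The initiator hexamers occurred at 28 of 181 host TSSs (15.5%), against 2.14% of all 23584 TSSs. Most of these were at ribosomal protein hosts, with 21 of 57 TSSs (36.8%), against 7 of 124 TSSs of other hosts (5.65%). At TSSs of hosts with a main-list summit the initiator share was 20.3%, and at those without it was 11.8%. Neither of these shares was split by kind of host. TATCGATA, the DRE (DNA replication-related element) bound by the factor Dref, occurred on either strand from 250 bases before to 50 after 17.1% of host TSSs and 6.79% of all TSSs. GGTCACAC, part of the core promoter element Motif 1, occurred at 11.0% and 5.66%. With and without a main-list summit, host TSSs held TATCGATA in 16.5% and 17.6%. At the summits themselves TATCGATA occurred in 2 of 36 windows of 101 bp, at RpL28 and RpS7, against 2.68% of all promoter summits. The shorter ATCGATA lies inside TATCGATA and occurred in 3 of the 36, and in 5.03% of all. GAGAGA was at 17.1% of host TSSs and 13.7% of all, CAGCTG at 10.5% and 16.6%, and TATAAA at 39.2% and 41.5%. A match describes letters in a window and is not a measured site.

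The summits near snoRNA genes were mostly those of a host or a neighbour. The 14 snoRNA genes shared 10 different peaks, and 13 of the 14 summits lay upstream of the snoRNA start. No main-list summit fell inside a snoRNA gene, and 4 snoRNA genes were overlapped by a main-list peak. Taking the strongest peak of each, for 7 of the 14 the summit was also within 500 bp of the host TSS. These were Or-aca5 and Psi28S-2949 in Uhg4 (189.6), U49:66Da in RpL14 (130.6), Psi28S-1232 in RpL17 (95.83, with 44.59 in replicate 1 and 48.31 in replicate 2), and Me28S-A1322 in eEF1alpha1 (82.77, with 39.24 and 39.43). The others were Me28S-A774b in RpS12 (73.21, with 48.26 and 35.81) and Psi18S-920 in RpL10Ab (49.37, with 51.72 and 27.94). Of the 247 snoRNA genes inside a host, 229 lay outside the exons of at least 1 host. They lay a median of 1465 bp from the nearest upstream host TSS over all 247, and 33 lay within 500 bp of it.

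The strongest summit of the other 7 lay within 500 bp of no host TSS. Me18S-A425 and Me18S-C1096, inside RpL3, shared a peak of 96.91, with 36.11 in replicate 1 and 61.90 in replicate 2, near the start of the antisense RNA gene asRNA:CR31144. This peak lay within RpL3 and was separate from the promoter peak of RpL3 of 89.61. Me18S-C1096 also had a weaker main-list summit, of 18.49, 228 bp from its start and within 500 bp of the RpL3 TSS. The gene abba-a, in an intron of tn, which encodes a TRIM protein of muscle, had a summit 422 bp from its start, at 84.43, with 44.90 and 47.38.

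The remaining 4 lie in no host, of 22 such genes. Psi28S-1153 (2R, 13557539 to 13557686) lies next to a pair of snoRNA genes named by position alone, FBgn0263472 (13557700 to 13557850) and FBgn0263459 (13557905 to 13558055). The 3 genes shared a peak of 104.8 (2R, 13557875 to 13558264), with 40.22 in replicate 1 and 65.49 in replicate 2, which also lay within 500 bp of the start of CG13334. Or-ACA6 (2R, 10081188 to 10081325) had a summit 494 bp from its start, at 142.5, with 81.25 and 62.92, and no other gene's start nearby. Or-CD13 (2R, 10082253 to 10082322) lay on the other side of that peak, with its start 503 bp from the summit, just outside the limit. Or-CD13 had a summit within 500 bp only in the list of replicate 2 (62.92), as did Psi18S-176 (44.41).

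Without replicate 2, in the list of replicate 1 alone, 6 of the 269 snoRNA genes (2.23%) had a summit within 500 bp of their start, against 14 (5.20%) in the list of replicate 2. In the lists of replicates 1 and 2 the share of ncRNA genes was 3.86% and 4.17%, and that of all genes 10.1% and 9.06%. The U3 genes are transcribed from their own promoters and serve in cleavage of the ribosomal RNA precursor. None of the 3 had a summit in any thresholded list. U3:54Aa had a candidate of 40.73 in the ranked list of the whole series, U3:9B of 18.38 and U3:54Ab of 10.89, and their nearest main-list summits lay 3399, 37772 and 5286 bp away. Over all snoRNA genes the nearest main-list summit was a median of 5797 bp away. That distance was 1221 bp for genes whose host had a summit and 15460 bp for genes whose host had none. The groups were set by a summit near the host TSS, so a shorter distance in the first was built in and is not a result.

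The annotated genes carry the letters of their kind. Of 117 snoRNA genes classed as box C/D-like by symbol, 68.4% had TGATGA in their first 20 bases and 94.0% had CTGA in their last 20. Of 120 classed as box H/ACA-like, 91.7% had ACA 3 bases from the end. The median length was 80 bases in the first class and 140 in the second. Of the 14 with a summit near their start, 5 were box C/D-like, 6 were box H/ACA-like and 3 were unclassed.

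Genes for the proteins that act with snoRNAs were compared as a related list. Of 16 listed symbols 13 were matched, and 3 of the 13 had a main-list promoter summit, beside 14.1% of all protein-coding genes. A count this small sets no difference from that share. Fib, which encodes the methyltransferase fibrillarin of box C/D particles and hosts a snoRNA gene of its own, had the weakest strongest-peak of the 36 hosts, 71.64, with 48.88 in replicate 1 and 30.84 in replicate 2, and it lay nearer to CG3085. NHP2, a core protein of box H/ACA particles, had a peak of 152.0, with 80.40 and 66.27. Nopp140, a nucleolar chaperone of both kinds of particle, had a peak of 81.42, with 35.14 and 45.95. Of these NHP2 was the highest and the one above the list median.

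The other 10 had no summit in any thresholded list. They included the remaining box C/D core genes nop5 (candidate 51.34), Nop56 (33.37) and hoip (56.20), and Nop60B (28.76), which encodes the pseudouridine synthase dyskerin and holds 7 snoRNA genes. They also included ldbr, which encodes the lariat debranching enzyme (42.61), the exonuclease gene Rat1 (47.66) and the assembly helicase genes rept (60.99) and pont. The candidate at pont was 387.9, with 233.8 in replicate 1 and 151.8 in replicate 2. CG10341 and CG10055 had candidates in the ranked list of replicate 2 alone, at 22.67 and 18.67. Only pont stood near the strongest hosts, and its candidate was absent from the thresholded lists.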

How the data were processed

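The authors deposited 8 peak lists on dm6 for 2 biological replicates, of which 4 were thresholded by the irreproducible discovery rate (IDR) and 4 ranked all candidates. Their aligner and peak caller were not given in the sources used here. Each deposited peak has a signal in the peak caller's units and a score, which in the thresholded lists is at least 830. The deposited ranked lists give the −log10 of the IDR. The ranked list of the whole series used here held 121998 candidates. Another deposited one, of 129365, was not used for candidate signals or IDRs.

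Biotypes, gene spans and TSSs were those of Ensembl release 115 (BDGP6.54). Bases were read from RefSeq's dm6 assembly. A summit was counted within 500 bp of a TSS. Where several peaks qualified, the strongest was reported. A replicate's signal is that of its strongest ranked candidate overlapping the main-list peak by at least 1 bp. Candidates for genes without a main-list summit are the strongest within 500 bp of a TSS. Kinds of snoRNA and of host were taken from symbols. Python 3.11.15, pandas 2.3.3, numpy 2.4.6, scipy 1.17.1 and matplotlib 3.10.9 were used. The counting was tested on simulated data.

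Genes were named by a rule: the 15 hosts of strongest signal, every Uhg gene, the 5 hosts with most snoRNA genes, snoRNA genes with a summit near their start, and a list of snoRNA-associated proteins. RpL4, RpL22, RpL28, RpS7, RpS12 and Prp39 were named after their values were seen. The members and lists were chosen with earlier results of these data known. There was 1 group and a control was not analysed here, so no comparison between samples was tested. Of the protein list, 3 symbols were not matched and are not reported here. The values of 1 of the 15 strongest hosts are not reported here.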

Additional observations from a re-analysis of the deposited data

How the results depend on the processing

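Of 39 alternative settings, 27 gave a value within the 95% interval of the main one and 12 did not. The share of hosts with a promoter summit was 26.3% to 27.4% with 1 replicate left out and 15.8% with the stronger 50% of peaks, and that of protein-coding hosts 27.4% to 28.6% and 16.7%. The host share was above that of all genes in each of 10 alternatives. For non-coding hosts it was 18.2% in each single-replicate list, 9.09% (1 of 11) both within 250 bp and with the stronger 50% of peaks, beside 9.26% and 7.25% of all genes, and 0.0% (0 of 5) without genes that have a close neighbouring TSS. The share of snoRNA genes was 2.23% to 5.20% with 1 replicate left out, 2.60% with the stronger 50% of peaks, 2.23% within 250 bp, 16.0% within 1000 bp and 1.27% without close neighbours. At 1000 bp the share of all genes was 15.01%, and the snoRNA share was below that of all genes in the other 7 of 8 alternatives. Beside ncRNA genes the snoRNA share had no steady side. It was lower in the list of replicate 1 (2.23% against 3.86%) and higher in that of replicate 2 (5.20% against 4.17%). The median percentile of host summits was 43.8 to 49.5 with 1 replicate left out and 53.6 in the other series list. The settings of 1 TSS only (32.7%) and no ribosomal protein genes (28.8%) were chosen after seeing the data. The cause of these moves was not tested. No paired analysis was possible because there was 1 group and no result came from a test between samples.

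Peak lists hold no read depth, so a missing summit was not detectable at this depth and threshold, and is not shown to be absent. Hosts and neighbours within 500 bp share summits.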

Other observations

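Some candidates that passed the stated IDR were missing from the conservative list. In the ranked list of the whole series used here, 3658 candidates had an IDR of 0.01 or less, and 125 of these were absent from the main list. They included the peak at pont (3R, 10261870 to 10262105), with a signal of 387.9 and a −log10 IDR of 5.0, and that at the host RpL13A (3R, 5624251 to 5624640), with 66.65 and 2.21. The pont candidate lay 124 bp from its TSS and the RpL13A candidate 28 bp. Both were named after their values were seen.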
